A study of Mus musculus with 15 samples.

Results

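The 10 claudin genes described here (Cldn1, Cldn3, Cldn4, Cldn5, Cldn7, Cldn8, Cldn9, Cldn10, Cldn11 and Cldn12) were taken by gene symbol from a table of estimated counts for 55523 gene rows of the mouse pituitary gland, in which each of them had a single row. They were chosen with values of these same libraries already known, and the choice was made around the 4 groups of mice compared, so that their differences between those groups are descriptions. No p-value is printed for any of the 10, and where it is stated that one of them passed or missed the threshold of a fit across all genes, nothing is concluded from it. All mice carried a deletion of the pituitary enhancer (PE) in an intron of Nr5a1, the gene of a nuclear receptor that drives gonadotrope differentiation. PE+/- mice had the deletion on one allele and served as controls, and PE-/- mice had it on both alleles, the deletion having been made by genome editing in fertilized eggs. The whole gland was sequenced in 4 PE+/- males, 4 PE-/- males, 4 PE+/- females and 3 PE-/- females. The age of the mice behind these libraries and the stage of the estrous cycle were not given in the sources used here, and no label says whether a library was made from 1 gland or from several. The p-values given for other genes set a difference against the spread between the libraries of the groups compared. As reported, only the comparison of the genotype change between the sexes used all 15 libraries.

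Claudins are small proteins that cross the membrane 4 times and polymerize into the strands of tight junctions, the contacts that seal the space between neighboring epithelial or endothelial cells. Some claudins tighten this seal and others form channels through it, so that the set made by a cell decides which ions pass between cells. They are anchored inside the cell by scaffold proteins such as ZO-1, the product of Tjp1. In the pituitary gland, folliculostellate cells are joined by tight junctions, and Cldn5 is made by the endothelial cells of vessels.

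The claudin signature in the first extracellular loop, the stretch by which members of this family are recognized, was read for all 10 genes from their reference transcripts (GENCODE M21 on GRCm38, the build of the counts) and is shown so that the other members can be set beside Cldn8, the member with the most results to describe. Capitals mark the codons of the conserved leucine and tryptophan with the residue before them, and the codons of both conserved cysteines.
Cldn8 (chr16:88562844-88562891, minus strand): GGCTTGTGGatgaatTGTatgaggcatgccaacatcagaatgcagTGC
Cldn3 (chr5:134986586-134986633, plus strand): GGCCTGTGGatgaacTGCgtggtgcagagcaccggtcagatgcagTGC
Cldn4 (chr5:134946554-134946601, minus strand): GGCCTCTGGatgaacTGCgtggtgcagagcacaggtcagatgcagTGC
Cldn9 (chr17:23683458-23683505, minus strand): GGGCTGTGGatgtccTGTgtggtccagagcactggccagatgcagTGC
Cldn7 (chr11:69966071-69966118, plus strand): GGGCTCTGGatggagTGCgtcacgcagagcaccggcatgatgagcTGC
Cldn1 (chr16:26371435-26371482, minus strand): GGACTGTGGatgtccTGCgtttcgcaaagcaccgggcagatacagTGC
Cldn5 (chr16:18777140-18777187, plus strand): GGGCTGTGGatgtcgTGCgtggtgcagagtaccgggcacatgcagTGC
Cldn10 (chr14:118855131-118855178, plus strand): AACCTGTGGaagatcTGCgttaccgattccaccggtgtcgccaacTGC
Cldn11 (chr3:31150300-31150344, plus strand): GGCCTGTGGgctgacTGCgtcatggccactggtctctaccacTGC
Cldn12 (chr5:5508225-5508269, minus strand): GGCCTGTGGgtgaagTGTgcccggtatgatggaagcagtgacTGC

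Over the 48 bases of this coding stretch, Cldn3 had the same base as Cldn8 at 32 positions, Cldn4 at 30, Cldn9 at 29, Cldn5 and Cldn7 at 28, Cldn1 at 27 and Cldn10 at 23. The stretch was 45 bases long in Cldn11 and Cldn12, which were not aligned to it. Cldn8, Cldn3, Cldn4, Cldn5 and Cldn9 each had their coding sequence in a single exon. No window of 50 bases of any member's exons recurred in a transcript of another gene. Cldn3 and Cldn4 lay 39279 bp apart on chromosome 5, and Cldn9 lay 137 bp from Cldn6 on chromosome 17. Cldn8 (chr16:88560828-88563183, minus strand) lay 53849 bp from Cldn17, which was at 0 in 13 of the 15 libraries.

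The libraries held 12982794 to 30238443 estimated counts in all. Nr5a1, the targeted gene, measured 33.7 to 80.1 CPM (counts scaled to a common library size, with TMM factors over all 15 libraries) in the PE+/- libraries and 0.00 to 0.896 CPM in the PE-/- libraries, so no library went against its genotype label. The first principal component of all genes carried 14.4% of the variance and set the 4 PE+/- females apart from the 11 other libraries. The somatotrope markers Gh and Ghrhr summed to 59333 CPM or more in every library, while posterior lobe markers varied among the males, with a summed level of 16.6 to 136 CPM in PE+/- males. Between genotypes 3 of 5 gonadotrope markers were called lower in PE-/- mice in each sex (edgeR, adjusted over all genes). Over all genes 0.132% were called in males and 1.05% in females. None of the 5 gonadotrope markers had a log2 fold change above 0 in either sex. In females Prl and 1 of 6 fibroblast or mural markers were called lower as well. No marker of somatotropes, corticotropes and melanotropes, thyrotropes, stem or folliculostellate cells, endothelium, oligodendrocytes or Schwann cells, posterior lobe, immune or erythroid cells was called between genotypes. With such small shares of all genes called, this does not show that their levels were the same.

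Cldn8, a barrier-forming claudin best known from the collecting duct of the kidney, was the claudin whose group means lay farthest apart in CPM. It measured 333, 239.8, 245 and 213 CPM in the 4 PE+/- females, a mean of 258 ± 52.0 (SD, n = 4). In the 3 PE-/- females it measured 65.4, 93.8 and 85.0 CPM (81.4 ± 14.5). All PE+/- females lay above all PE-/- females, whose mean was 31.6% of the control mean. In males it measured 45.5, 41.0, 76.0 and 35.7 CPM in PE+/- (49.6 ± 18.1, n = 4). The 4 PE-/- males had 79.0, 92.7, 63.3 and 71.9 CPM (76.7 ± 12.4). The ranges of the male groups overlapped through the third PE+/- male, and the order of the genotype means was the opposite of that in females. The lowest PE+/- female was 2.27 times the highest of the 11 other libraries, which spanned 35.7 to 93.8 CPM. Of 19286 genes tested, 499 (2.59%) had all 4 PE+/- females above all 11 others and 274 (1.42%) had them below. The level of Cldn8 rested on 553 to 5732 estimated counts per library.

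**Figure D1:**
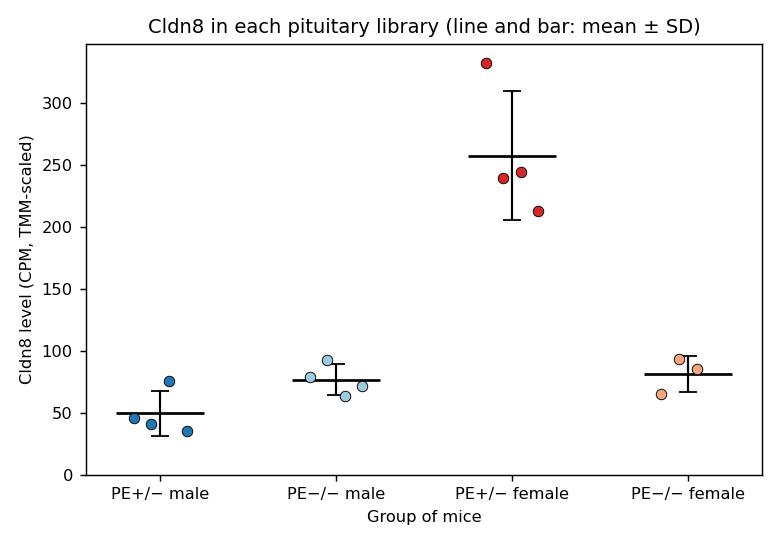
Level of Cldn8 (y axis, CPM on TMM-scaled library sizes) in the 15 pituitary libraries by group of mice (x axis); each point is a library, the line the group mean and the bar 1 SD. The 4 PE+/- females sit between 213 and 333 CPM and every other library at or below 93.8 CPM.

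As log2 fold changes from the fit across all genes, Cldn8 was 1.67 lower in PE-/- than in PE+/- females (log2 fold change -1.67, SE 0.21) and 0.63 higher in males (SE 0.25). The genotype change in females minus that in males was -2.29 (SE 0.35). Between the sexes, Cldn8 was higher in females by 2.39 (SE 0.27) among PE+/- mice, where the ratio of means was 5.20 and the groups did not overlap. Among PE-/- mice the corresponding value was 0.09 (SE 0.18), with a ratio of means of 1.06 and overlapping groups. With edgeR's quasi-likelihood test at an adjusted p of 0.05 over all genes, Cldn8 was the only member called in the comparison of genotypes in females, in the comparison of that change between the sexes and in the comparison of the sexes among PE+/- mice. The share of all genes called was 1.05%, 0.161% and 0.670% in these comparisons. No member was called in the comparison of genotypes in males, where 0.132% of genes were, or in that of the sexes among PE-/- mice, where 0.0494% were. Since these contrasts are those by which the genes were chosen, nothing is read from the counts of members.

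The size of the Cldn8 differences changed little when single libraries were left out, although its side of the threshold did. The fold change between genotypes in females ranged from -1.79 to -1.52, and it remained past the threshold in 2 of 7 such fits. It was no longer called without PE+/- female 2 (-1.71), PE+/- female 3 (-1.70), or any of the PE-/- females 1 (-1.53), 2 (-1.79) and 3 (-1.70). The difference between the sexes in this change ranged from -2.58 to -2.13 and remained past the threshold in 11 of 15 fits, the exceptions being without PE-/- female 1 (-2.16), PE-/- female 3 (-2.32), PE+/- male 2 (-2.20) and PE-/- male 4 (-2.32). The difference between the sexes among PE+/- mice ranged from 2.22 to 2.67 and remained past it in 6 of 8 fits, the exceptions being without PE+/- male 1 (2.35) and PE+/- male 2 (2.30).

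Of 12 lists of cell type markers, 3 had summed levels that did not overlap between the female genotypes, beside 18.6% of single genes. They were those of lactotropes, of fibroblasts or mural cells, and of oligodendrocytes or Schwann cells. Prl, the prolactin gene of lactotropes and the only gene of its list, measured 21936 to 35085 CPM in PE+/- females and 4453 to 5598 CPM in PE-/- females and was called there, whereas in PE+/- males it ranged from 12277 to 31159 CPM with Cldn8 low and was not called between the sexes. The 6 fibroblast or mural markers summed to 314 to 339 CPM in PE+/- females, 190.2 to 252 in PE-/- females, 198 to 333 in PE+/- males and 201 to 288 in PE-/- males. Of these 6, Col1a2, which encodes a chain of type I collagen, was called between the female genotypes (-1.95, SE 0.23) and between the sexes in PE+/- mice (1.61, SE 0.17). Col1a2 measured 133 to 199 CPM in PE+/- females, 36.2 to 56.0 in PE-/- females, 45.4 to 63.5 in PE+/- males and 28.2 to 72.2 in PE-/- males, so that it was high in the same 4 libraries as Cldn8. The summed level of the 11 markers of stem or folliculostellate cells was 528 to 986 CPM (median 587) in PE+/- females and 886 to 965 CPM (median 892) in PE-/- females. Between the female genotypes 9 of the 11 had log2 fold changes above 0, with a median of 0.46, beside 0.002 over all genes. Of these markers, S100b was at 0 in 2 libraries and had at most 55 estimated counts, and all others were above 0 in every library. The 10 endothelial markers summed to 172 to 218 CPM in PE+/- females and to 140.2 to 172 CPM in PE-/- females, and none was at 0. No marker of these last 2 lists was called in any of the 5 comparisons, beside 0.0494% to 1.05% of all genes. Between the sexes of PE+/- mice 2 lists did not overlap, beside 9.76% of single genes, and the same 2 between the male genotypes, beside 4.55%. These were gonadotropes (5852 to 8732 CPM in PE+/- females and 8973 to 16861 in PE+/- males) and somatotropes (59333 to 104773 and 134115 to 186821). In PE-/- males the gonadotrope list summed to 1359 to 6811 CPM and the somatotrope list to 65582 to 129575 CPM. The part of any of these cell types in the difference of Cldn8 was not tested. In whole glands, fewer cells of a type and less RNA per cell cannot be told apart.

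The genes whose pattern over the 15 libraries was most like that of Cldn8, by Pearson's correlation of log2(CPM + 1) over 16044 genes with a mean of at least 20 counts, were Pknox2 (r = 0.93), Cpne4 (0.93), Gm4319 (0.92), Reln (0.92) and Narf (0.91). Pknox2 encodes a homeodomain transcription factor, Cpne4 a calcium-dependent membrane-binding protein and Reln the secreted protein reelin. Their levels were highest in the PE+/- females as well, at 57.7 ± 8.86 CPM for Pknox2 against means of 31.1 to 40.0 in the other groups, 10.7 ± 1.54 for Cpne4 against 3.51 to 5.16, and 58.2 ± 29.3 for Reln against 0.442 to 3.62. The genes with the lowest correlations were Masp1 (-0.93), Gucy1b1 (-0.93), Plcg2 (-0.91), Tfcp2l1 (-0.91) and A2m (-0.89). Masp1, which encodes a protease of the complement system, measured 7.31 ± 1.73 CPM in PE+/- females and 14.9 to 19.9 on average elsewhere. These values describe the same 15 libraries and follow in large part the 4 groups. After each group's mean was subtracted, r was 0.70 for Pknox2, 0.64 for Cpne4, 0.28 for Gm4319, -0.11 for Reln and 0.49 for Narf. No other claudin was close to Cldn8 on this measure, the member with the highest value being Cldn5 (0.47) and those with the lowest Cldn10 (-0.71) and Cldn11 (-0.63).

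Cldn3 and Cldn4, barrier claudins that both bind the enterotoxin of Clostridium perfringens, varied little between groups. Cldn3 measured 101 to 137 CPM in PE+/- males, 98.6 to 124 in PE-/- males, 79.6 to 144 in PE+/- females and 121 to 138 in PE-/- females. Cldn4, which pairs with Cldn8 in the kidney, measured 42.6 to 68.8, 42.1 to 66.9, 24.7 to 57.5 and 43.2 to 60.9 CPM in the same order of groups. All group ranges of either gene overlapped in the comparisons made. The log2 fold changes between genotypes in females were 0.28 (SE 0.22) for Cldn3 and 0.42 (SE 0.28) for Cldn4. They depended on single libraries, with 0.15 for Cldn3 without PE+/- female 3, 0.24 for Cldn4 without PE+/- female 2, and 0.47 and 0.65 without PE+/- female 1. Cldn4 did not share the pattern of Cldn8, its mean being lowest in the group where Cldn8 was highest (40.1 ± 13.4 CPM in PE+/- females against 53.8 to 55.7 in the other groups).

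Cldn9, a barrier claudin needed in the inner ear, was the most abundant member per length of exon in every library. It measured 834 to 1169.6 CPM in PE+/- males, 791 to 1171 in PE-/- males, 618 to 1377 in PE+/- females and 1053 to 1183 in PE-/- females. Its group means lay between 978 and 1139 CPM, and the widest spread within a group was that of the PE+/- females (SD 331, n = 4). Its log2 fold changes between genotypes were -0.05 (SE 0.17) in males and 0.06 (SE 0.26) in females. Adding the counts of Cldn6, its close neighbor, gave -0.04 and 0.05.

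Cldn7, a claudin of the lateral membrane of epithelia, measured 34.1, 19.0, 28.0 and 28.6 CPM in PE+/- males and 27.2 to 33.9 in PE-/- males. In females it measured 12.1 to 24.8 CPM in PE+/- mice and 15.9, 22.2 and 40.6 in PE-/- mice. The genotypes overlapped in both sexes, and the highest library of all was PE-/- female 3. Without that library the log2 fold change in females was -0.08 in place of 0.38 (SE 0.37). Cldn1, which seals the epidermis, was the least abundant member per length, with 1.48 to 5.38 CPM over all libraries. Its highest value came from PE-/- male 3, without which the fold change in males was -0.46 in place of 0.10 (SE 0.43).

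Cldn5, the claudin of the endothelial barrier, differed between genotypes in males. It measured 1.69, 1.62, 3.78 and 1.94 CPM in PE+/- males (2.26 ± 1.02, n = 4) and 5.66, 7.31, 4.73 and 5.46 CPM in PE-/- males (5.79 ± 1.09, n = 4). In females it measured 3.83, 6.78, 5.27 and 5.61 CPM in PE+/- and 8.39, 7.66 and 5.86 CPM in PE-/- mice. The male genotypes did not overlap, and the PE+/- males were also the lower group beside PE+/- females, where only the third male came near them. Groups that did not overlap were found for 4.55% of all genes between the male genotypes and for 9.76% between the sexes of PE+/- mice. The log2 fold changes were 1.36 (SE 0.32) between the male genotypes, 0.43 (SE 0.25) between the female genotypes and 1.26 (SE 0.34) for females against males in PE+/- mice. Cldn5 was not called by edgeR in these comparisons. DESeq2 called it between the male genotypes, beside 1.04% of all genes, and between the sexes in PE+/- mice, beside 4.00%, and in the latter so did edgeR with 1 fit on all 15 libraries, beside 2.18%. The summed level of the 10 endothelial markers was 127 to 413 CPM (median 169) in PE+/- males and 119 to 142 CPM (median 138) in PE-/- males. None of the 10 was called between the male genotypes, beside 0.132% of all genes. None had a log2 fold change above 0 there, and their median was -0.39, beside 0.003 over all genes. The part of endothelial cells in the level of Cldn5 was not tested.

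Cldn11, the claudin of central myelin and of Sertoli cells, measured 24.3, 25.5, 26.0 and 29.6 CPM in PE+/- males (26.4 ± 2.31, n = 4). It measured 17.3, 19.1, 25.2 and 18.2 CPM in PE-/- males, 13.9 to 22.7 in PE+/- females and 19.2 to 22.0 in PE-/- females. The PE+/- males lay above all females of either genotype and overlapped with PE-/- males through PE-/- male 3 alone. The log2 fold change was -0.40 (SE 0.15) between the male genotypes and -0.47 (SE 0.17) for females against males in PE+/- mice. The 7 markers of oligodendrocytes or Schwann cells summed to 48.6 to 77.8 CPM in PE+/- males, 45.6 to 98.6 in PE-/- males, 50.0 to 72.1 in PE+/- females and 41.4 to 45.0 in PE-/- females. Of these, Sox10 was at 0 in 13 libraries, Mog in 12 and Mobp in 10. Their part in the level of Cldn11 was not tested.

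Cldn10, a channel-forming claudin of the kidney, ranged from 0.671 to 24.9 CPM, and its highest library was 37.2 times its lowest, a ratio that only Cldn12 exceeded among the members. It measured 5.84, 12.0, 5.91 and 24.9 CPM in PE+/- males and 1.62, 3.44, 15.9 and 12.2 CPM in PE-/- males. In females it measured 3.28, 1.80, 1.96 and 0.671 CPM in PE+/- and 3.27, 2.44 and 2.93 CPM in PE-/- mice. The males scattered widely within either genotype, and every PE+/- male lay above every female. The log2 fold change of females against males was -2.65 (SE 0.62) in PE+/- mice and -1.53 (SE 0.75) in PE-/- mice, where the groups overlapped. Without PE+/- male 4 the former was -2.03. Between the male genotypes it was -0.55 (SE 0.75), with 0.07 without PE+/- male 4 and -1.09 without PE-/- male 3. The posterior lobe markers were also more variable in males, with a summed level of 16.6 to 136 CPM in PE+/- males, 30.7 to 131 in PE-/- males, 14.6 to 31.1 in PE+/- females and 24.4 to 33.7 in PE-/- females. Of these 7 genes, Avp and Oxt were at 0 in 11 libraries, and the part of the posterior lobe in the level of Cldn10 was not tested.

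Cldn12, which lacks the tail motif by which other claudins bind ZO proteins, measured 87.3 to 121 CPM in 13 of the 15 libraries. In PE-/- male 1 it had 6 estimated counts (0.303 CPM) and in PE-/- female 3 it had 8 (0.350 CPM). Both libraries were otherwise in the range of the others for the level of Cldn9 and Cldn3. Such a drop was not particular to this gene, since 217 of 11892 genes with a mean of at least 100 counts (1.82%) had 1 to 3 libraries below 1% of their median. With these values the log2 fold changes between genotypes were -0.46 (SE 1.04) in males and -0.37 (SE 1.21) in females. They were -0.05 without PE-/- male 1 and 0.22 without PE-/- female 3. The means of the remaining libraries lay between 103 and 119.7 CPM in the 4 groups.

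**Figure D2:**
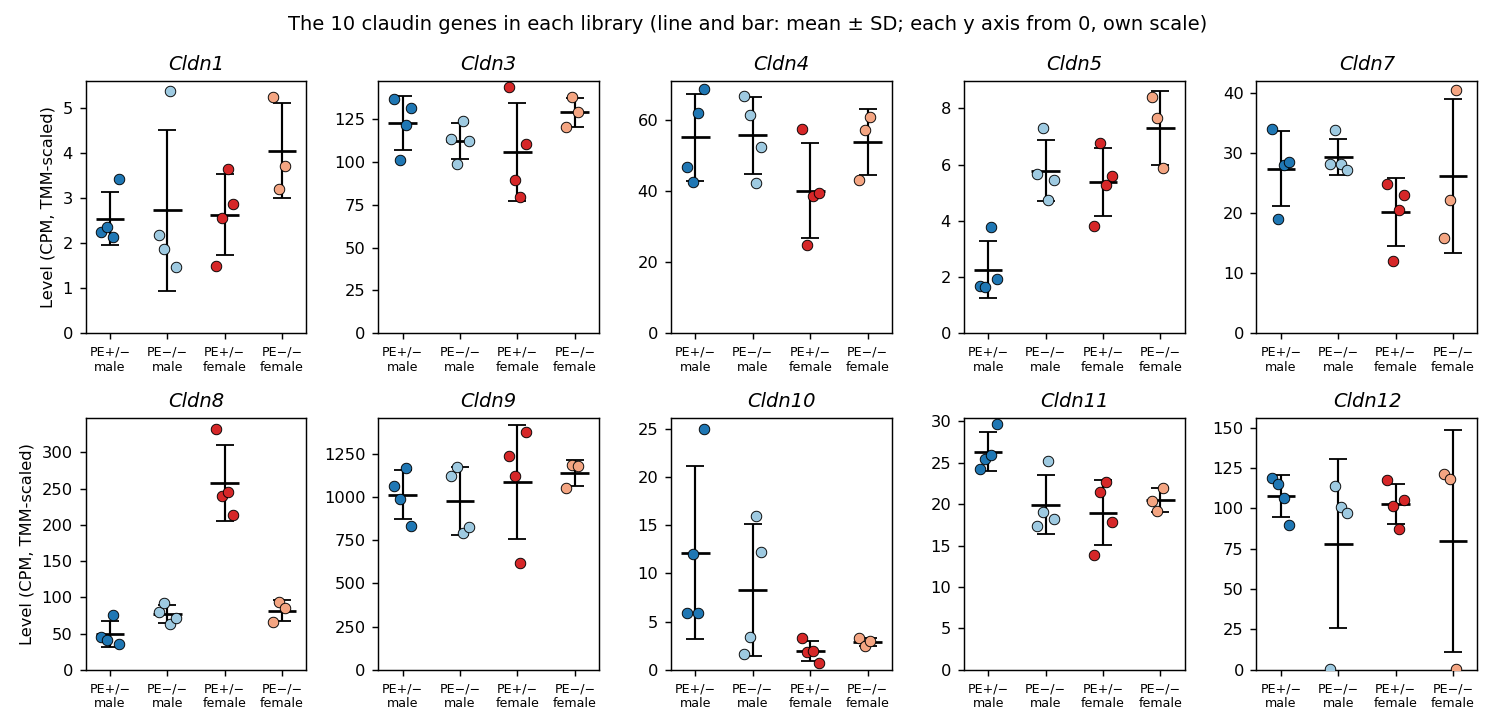
Levels of the 10 claudin genes (y axes, CPM on TMM-scaled library sizes, each from 0 on its own scale) in the 15 libraries by group of mice (x axes); points are libraries, lines group means and bars 1 SD. Cldn8 is high in the PE+/- females, Cldn5 low in the PE+/- males, Cldn10 scattered in males, and Cldn12 near 0 in 1 PE-/- male and 1 PE-/- female.

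Of the 10 members, 1 did not overlap between the male genotypes (Cldn5) and 1 between the female genotypes (Cldn8), beside 4.55% and 18.6% of all genes. Between the sexes 4 did not overlap in PE+/- mice (Cldn5, Cldn8, Cldn10 and Cldn11), beside 9.76% of all genes, and 0 in PE-/- mice, beside 5.24%. The median log2 fold change of the 10 members was -0.02 between the male genotypes and 0.33 between the female genotypes, beside medians over all genes of 0.003 and 0.002. In females 8 of the 10 members had a value above 0, the exceptions being Cldn8 and Cldn12. For females against males the median of the members was -0.13 in PE+/- mice and 0.06 in PE-/- mice. The comparisons between genotypes and between sexes share libraries and are not independent of each other.

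**Figure D3:**
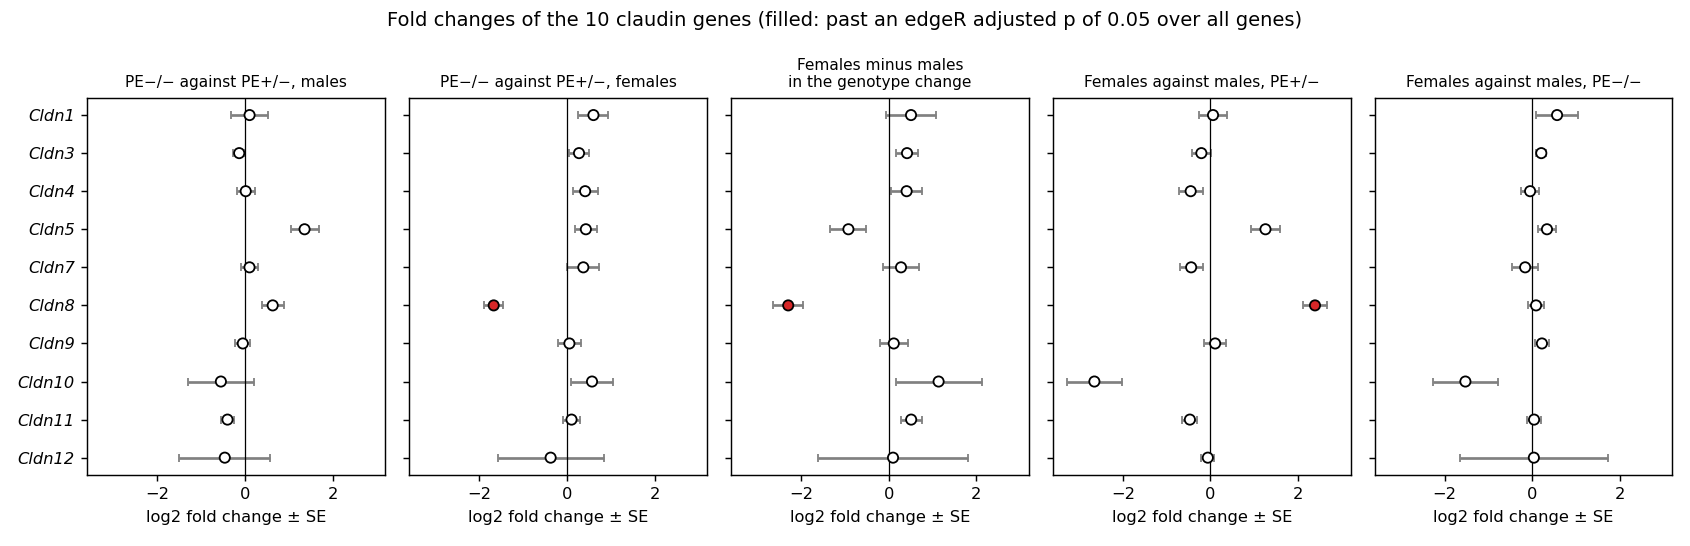
Log2 fold changes (x axes) of the 10 claudin genes (rows) in the 5 comparisons (panels), with bars of 1 SE; filled points mark an edgeR adjusted p below 0.05. Cldn8 is filled in 3 panels, at -1.67, -2.29 and 2.39, and lies at 0.63 and 0.09 in the panels of the male genotypes and of the sexes in PE-/- mice.

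To set the members beside each other, levels were divided by the length of the union of exons in kb. On this scale Cldn9 ranked first in every group and made up a mean of 73.0% to 78.4% of the summed level of the 10 genes. Cldn3 ranked second in PE+/- males (97.6 ± 12.6 CPM per kb), PE-/- males (89.0 ± 8.33) and PE-/- females (102.6 ± 6.85). In PE+/- females Cldn8 stood second (109 ± 22.1 CPM per kb), ahead of Cldn3 (84.2 ± 22.6), and their ranges overlapped. Cldn8 came at place 5 in PE+/- males (21.0 ± 7.67) and at place 3 in both PE-/- groups (32.6 ± 5.27 in males and 34.5 ± 6.17 in females). Its share of the summed level was 2.27% in PE+/- males, 3.69% in PE-/- males, 11.2% in PE+/- females and 3.42% in PE-/- females, as means over libraries. With Cldn9 left out of the sum, Cldn8 made up 36.0% to 43.8% in the PE+/- females and 6.85% to 18.5% in the other libraries. The summed level itself overlapped between all groups, from 665 to 1205 CPM per kb in PE+/- females and from 759 to 1057 in the others.

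Among the genes after these, Cldn8 overlapped in range with Cldn4, Cldn12, Cldn11 and Cldn7 in PE+/- males. It overlapped with Cldn4 in both PE-/- groups and with Cldn12 in PE-/- females. Cldn4 and Cldn12 did not differ beyond their ranges from each other in any group. Cldn7 and Cldn11 followed and again overlapped in all groups but the PE-/- males, in which Cldn7 (15.1 ± 1.54 CPM per kb) lay above Cldn11 (10.7 ± 1.90). Cldn5, Cldn10 and Cldn1 came last. Cldn5 ranked below Cldn10 in PE+/- males (1.59 ± 0.723 against 4.69 ± 3.47, with overlapping ranges) and above it in the other groups. Cldn1 was last in all 4 groups, at 0.525 to 0.839 CPM per kb.

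**Figure D4:**
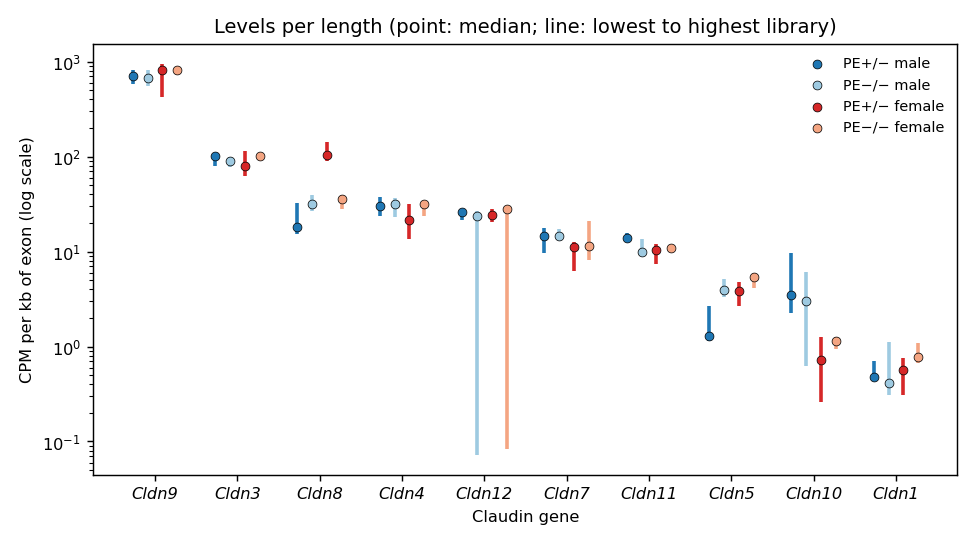
Level per length (y axis, CPM per kb of exon, log scale) of the 10 claudin genes (x axis, ordered by the mean of the 4 groups); points are group medians and lines run from the lowest to the highest library of a group. Cldn9 lies above all others, Cldn8 shifts up in the PE+/- females alone, and the long lines of Cldn12 come from the libraries with 6 and 8 estimated counts.

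Of 27 other rows of the claudin family, including the claudin domain genes Cldnd1 and Cldnd2, 14 were at 0 in all libraries, 7 were above 0 in only some of the libraries and 6 were above 0 in all 15. Those in all libraries were Cldn2, Cldn6, Cldn14, Cldn23, Cldn34c1 and Cldnd1. Between 6 and 7 of these 27 could be tested in a comparison, and none passed the threshold in edgeR or in DESeq2 in any of the 5. Over all genes edgeR called 0.0494% to 1.05% in these comparisons. DESeq2 called 1.04% between the male genotypes, 6.24% between the female genotypes and 4.00% between the sexes in PE+/- mice. With so few genes tested, nothing is read from the lack of calls. Cldn2, the claudin of cation pores, had the smallest unadjusted p of them between the male genotypes, at -1.03 on the log2 scale (SE 0.29, adjusted p = 0.463 by edgeR). Its value between the female genotypes was -0.98 (SE 0.35, adjusted p = 0.223 by edgeR). At an unadjusted p of 0.05, 1 of these other claudins passed in each of 4 comparisons, and 2 (Cldn2 and Cldn34c1) between the female genotypes. The corresponding shares of all genes were 6.14% between the male genotypes, 16.1% between the female genotypes, 10.1% in their interaction, 13.5% between the sexes in PE+/- and 3.37% in PE-/- mice.

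The partners of claudins in the junction were looked at through a list of 30 genes for scaffolds, junctional adhesion molecules, tricellular proteins and polarity proteins. They were chosen by what they are known to do, but with earlier results of these data known. All 30 could be tested, and none was called in any of the 5 comparisons with edgeR. Over all genes edgeR called 0.0494% to 1.05% in these comparisons, so nothing is read from the lack of calls among the 30. Between the female genotypes 8 of the 30 had an unadjusted p under 0.05, beside 16.1% of all genes, all 8 with higher values in PE-/- mice, and the median log2 fold change of the list was 0.32, beside 0.002 over all genes. Of the 30, 7 did not overlap between the female genotypes, beside 18.6% of all genes. Between the male genotypes 1 had an unadjusted p under 0.05, beside 6.14% of all genes, and the median was -0.003. DESeq2 called 4 of the 30 between the female genotypes (Cxadr among them), beside 6.24% of all genes, and 1 between the male genotypes (Cxadr), beside 1.04%.

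The gene closest to the threshold was Cxadr, which encodes a cell adhesion protein of tight junctions that also serves as a virus receptor. It measured 21.8 to 29.5 CPM in PE+/- females and 44.7 to 46.0 CPM in PE-/- females, groups that did not overlap and lay 0.82 apart on the log2 scale (SE 0.15, adjusted p = 0.0634 by edgeR). In males it measured 26.5 to 30.1 and 35.3 to 40.4 CPM, with 0.45 (SE 0.11, adjusted p = 0.358 by edgeR), and the difference between the sexes in this change was 0.38 (SE 0.17, adjusted p = 0.464 by edgeR). Tjp1, which encodes the scaffold ZO-1, had 0.41 (SE 0.19, adjusted p = 0.358 by edgeR) between the female genotypes. Ocln, which encodes occludin of the junction strands, had 0.25 (SE 0.24, adjusted p = 0.696 by edgeR). F11r, which encodes the adhesion molecule JAM-A, had 0.30 (SE 0.20, adjusted p = 0.53 by edgeR). Lsr, which encodes the angulin of tricellular contacts, had -0.56 (SE 0.29, adjusted p = 0.406 by edgeR). Cgn, which encodes the junction protein cingulin, measured 38.0, 6.95 and 39.6 CPM in the PE-/- females, and with its second library so low its fold change of 0.33 had an SE of 0.53. The value for Cgn was 0.79 without PE-/- female 2 and 0.01 without PE-/- female 3. Leaving out 1 library also moved the others in females, from 0.20 (without PE-/- female 1) to 0.56 (without PE-/- female 3) for Tjp1 and from -0.78 (without PE-/- female 1) to -0.32 (without PE-/- female 2) for Lsr. The values ran from 0.11 for Ocln and 0.16 for F11r without PE+/- female 3 to 0.46 and 0.43 without PE+/- female 1. An adjusted p above the threshold does not show that these genes were at the same level in both genotypes.

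Between the sexes of PE+/- mice, 7 of the 30 partner genes had an unadjusted p under 0.05, beside 13.5% of all genes, all 7 with lower values in females, and the median log2 fold change was -0.21. Cgn had the smallest edgeR adjusted p there (0.196), at -0.66 on the log2 scale (SE 0.20). Among PE-/- mice 1 of the 30 had an unadjusted p under 0.05, beside 3.37% of all genes, and the median was 0.01. For the difference of the genotype change between the sexes, 4 of the 30 had an unadjusted p under 0.05, beside 10.1% of all genes, and the smallest edgeR adjusted p was 0.335.

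**Figure D5:**
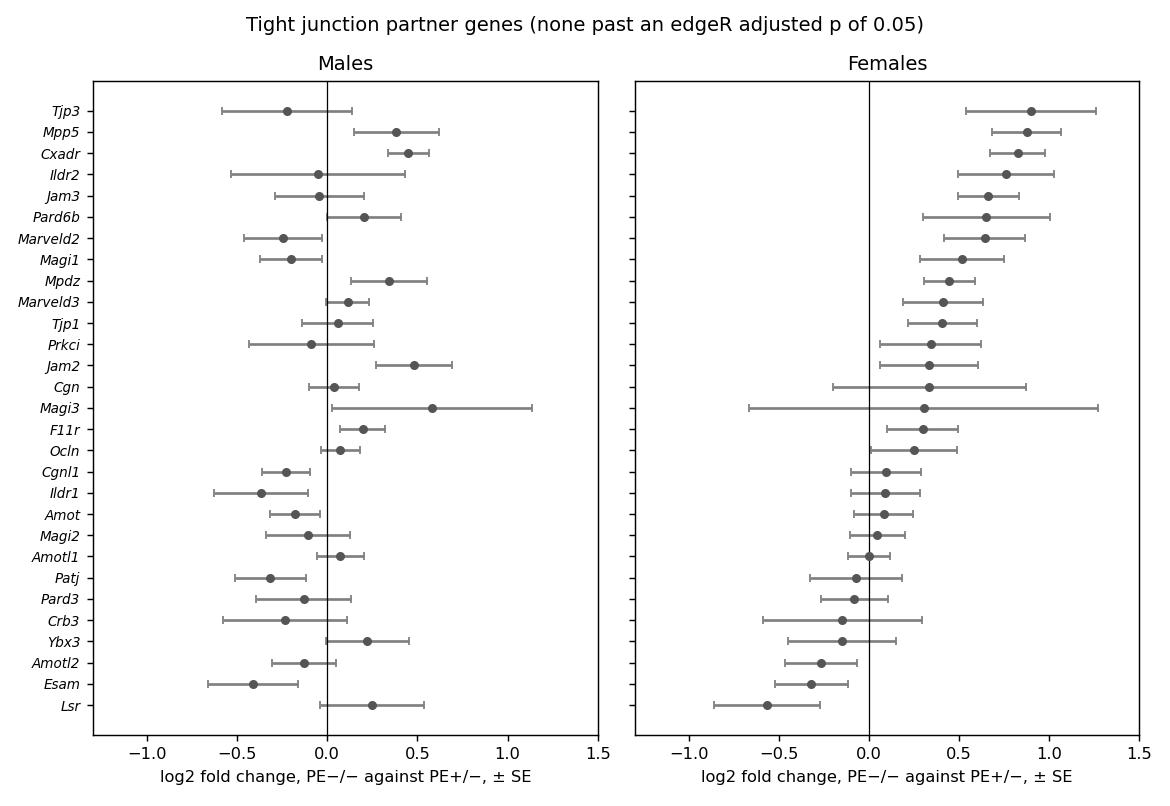
Log2 fold changes of PE-/- against PE+/- mice (x axes) for 29 of the 30 tight junction partner genes (rows, ordered by the value in females) in males (left) and females (right), with bars of 1 SE. In females most genes lie above 0, with a median of 0.32 over all 30. In males they are spread around a median of -0.003 over all 30. None passed the edgeR threshold, which 0.132% of all genes passed in males and 1.05% in females.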

How the data were processed

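Total RNA of whole pituitary glands was made into libraries with a kit for low RNA input and sequenced as read pairs. Per the labels and the study's methods, the authors used cutadapt for trimming, STAR for mapping to the mm10 genome and featureCounts for counting per gene. The deposited values are whole numbers, treated here as estimated counts, because 28933 of the 55523 rows carry names given by a transcript assembler and the values 5, 9 and 13 were 1.52, 1.16 and 1.08 times as frequent as their neighbors, so that 1 fragment adds about 4 counts. A depth of 12982794 to 30238443 such counts per library thus stands for fewer fragments, and the tests took the spread between libraries, not the counting error, as their error. Every column matched a sample by its description (0 did not), and no libraries of the same group were alike within sampling noise (chi-square per degree of freedom 71.4 to 231).

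Groups were compared with edgeR 4.0.16 in R 4.3.3 (TMM scaling, default filter on low counts, quasi-likelihood F test, two-sided, Benjamini-Hochberg adjustment over all genes tested, threshold 0.05), without a replicate block, for genotype within each sex, sex within each genotype and the interaction. The fit was also run on simulated counts, with less spread between libraries than edgeR estimated in these data (coefficient of variation 41.3% to 46.9%). That run therefore does not show how often the fit finds or misses changes here. Levels are CPM, and levels per kb use the union of exons in GENCODE M21. Alternatives were DESeq2 1.42.0, its size factors, library totals, no filter, a fit on all 15 libraries, a replicate block and leaving out each library. Leaving out both libraries in which Cldn12 was near 0 and adding Cldn6 to Cldn9 were chosen after seeing the data.

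The members and gene lists were chosen with earlier results of these data known. Named in the text were the 10 members, other claudins past the threshold, of 30 tight junction partners those past it and Tjp1, Ocln, Lsr, F11r and Cgn, and the 5 genes most and least like Cldn8. Cldn2, Cldn34c1, Cxadr and Col1a2 were named after their values were seen. The values of 1 partner gene are not reported here. Marker sums used fixed lists for gonadotropes, somatotropes, lactotropes, corticotropes and melanotropes, thyrotropes, stem or folliculostellate cells, endothelium, fibroblasts, oligodendrocytes, posterior lobe, immune and erythroid cells. Which program gave the assembled rows their names is not given in the sources used here.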

Additional observations from a re-analysis of the deposited data

Results flagged for a closer look

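The change of Cldn8 between genotypes differed between the sexes by -2.29 on the log2 scale (females minus males, SE 0.35), from -1.67 in females and 0.63 in males, with all 4 PE+/- females above all 11 other libraries. Cldn8 was among the genes chosen with these values known, so this is a description and not an independent test.

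Of 30 groups of 4 libraries looked at (10 members in 3 groups), 3 held a library set apart from the rest by Dixon's criterion, of which chance gives about 1 in 20 groups. Cldn5 was at 3.78 CPM in PE+/- male 3 and at 1.62 to 1.94 CPM in the other PE+/- males. Cldn7 was at 33.9 CPM in PE-/- male 2 and at 27.2 to 28.3 CPM in the others of its group. Cldn12 was at 0.303 CPM in PE-/- male 1 and at 97.4 to 114 CPM in the others.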

How the results depend on the processing

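The side of the threshold depended on the test more than the size of the differences did. Genes called between the male genotypes, between the female genotypes, in their interaction, between the sexes in PE+/- and between the sexes in PE-/- numbered 23, 189, 31, 115 and 9 as reported, and 231, 1309, 383, 852 and 43 with DESeq2. Without a filter on low counts they were 123 between the female genotypes and 66 between the sexes in PE+/-. With 1 fit on all 15 libraries they were 37 between the male genotypes, 714 between the female genotypes and 421 between the sexes in PE+/-. Leaving out 1 library gave 11 to 35, 29 to 244, 7 to 71, 34 to 113 and 7 to 27. Members called were 1 between the male genotypes (Cldn5) and 3 between the sexes in PE+/- (Cldn5, Cldn8 and Cldn10) with DESeq2, and 2 in the latter with 1 fit on all libraries. Leaving out 1 library gave 0 to 1 members between the female genotypes, in the interaction and between the sexes in PE+/-. Without both libraries in which Cldn12 was near 0, members called in the interaction were 0, and Cldn7 moved from 0.28 to -0.20 there and from -0.16 to -0.64 between the sexes in PE-/-. Tight junction partners called were 1 between the male genotypes and 4 between the female genotypes with DESeq2, and 2 between the female genotypes with 1 fit on all libraries.

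With the replicate number as a block, genes called were 0, 1, 11, 0 and 0 in the same order, and members called were 0 in each comparison, with Cldn8 at -1.75 between the female genotypes, -2.41 in the interaction and 2.43 between the sexes in PE+/-. The labels do not say what a number stands for, and the numbers were not taken as pairs. Deviations of same-numbered libraries correlated at -0.08 to 0.13, and those of differently numbered libraries at -0.13 to 0.17. These correlations do not decide whether the numbers mark pairs. Depth did go with the number, replicate 2 having the highest total in every group (22411476 to 30238443 counts) and replicate 3 the next highest. Whether same-numbered libraries were handled together was not tested.

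Leaving out 1 library turned the sign of small values that were not called. Between the male genotypes Tjp1 ranged from -0.10 to 0.17 and Cgn from -0.043 to 0.11, and between the sexes in PE+/- F11r ranged from -0.25 to 0.017. Cldn8 kept its sign in all alternatives for the 3 comparisons in which it was called. The order of levels per length was kept at 40 of 40 places with library totals and at 36 of 40 with the longest transcript as length. Depth limits the members with few counts, since the lowest libraries held 11 estimated counts for Cldn10, 19 for Cldn1 and 24 for Cldn5.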
